A study of Bos taurus with 13 samples.

Results

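The array labelled bovine adipose tissue was set against the arrays of the other 7 tissues in a series of 13 two-colour hybridisations to a cDNA microarray printed with clones from bovine mammary gland. The members were the 8 arrays on which channel 2 held RNA of 1 tissue and channel 1 held total RNA of the cell line BovMac, used as a common reference. Beside adipose tissue these were prepubertal mammary gland, taken from a Holstein heifer of 136 kg, the lymphoid organs thymus, spleen and lymph tissue, and liver, ileum and adrenal tissue. The labels name no breed, age, sex or number of animals for the other tissues, and no fat depot. Each tissue had 1 array. The other 5 arrays of the series compared stages of mammary gland or the reference with itself. Of 706 genes named on the array, 701 had at least 2 spots with a value on the adipose array and on at least 6 of the other 7 tissue arrays, and 5 were left out. For each gene the comparison gives the adipose value minus the mean of the other 7 tissues, and the question is which lipid, matrix and vascular genes placed adipose tissue apart from the other organs.

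Adipose tissue stores fatty acids as triacylglycerol in the lipid droplets of adipocytes. Fatty acids enter these cells with the help of CD36 and fatty acid-binding proteins, or are made from acetate in ruminants, and are joined to glycerol by a pathway that GPAM starts. The cells sit in a matrix of basement membrane and type VI collagen and are supplied by a dense capillary bed whose endothelium, like the adipocyte, is rich in caveolae.

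Values are log ratios per spot as deposited, centred on each array's median, and the mean over a gene's spots is given with the SD over spots, which measures only the agreement of spots on 1 array. The base of the logarithm and the order of the channels in the ratio were not given in the sources used here, so "above" and "higher" refer to the deposited ratio. If the ratio ran the other way every such word would turn round, and neither reading is a statement about more or less RNA. With 1 array of adipose tissue there is no replicate, no test was made, and even an exact two-sided permutation test of 1 array against 7 could not give a p below 0.25. The other 7 arrays are different organs, so their range describes these organs and is not an error. In a whole tissue, fewer cells of a type and less RNA per cell cannot be told apart.

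By the number of genes beyond all the other tissues, the adipose array stood out least on the centred values, without rescaling. Its gene values lay outside those of all the other 7 tissues for 63 of 701 genes (8.99%), 30 above (4.28%) and 33 below (4.71%). The same count was 130 for lymph tissue (18.5%), 133 for spleen (19.0%), 150 for prepubertal mammary gland (21.4%), 156 for liver (22.3%), 212 for thymus (30.2%), 221 for adrenal tissue (31.6%) and 337 for ileum (48.3%). The spread of gene values was also narrowest on the adipose array, with an interquartile range of 0.157 log units, against 0.171 on the adrenal array, 0.178 on the liver array and 0.408 on the ileum array. On the arrays of the reference against itself that range was 0.252 and 0.343, so adipose values were spread less than those of hybridisations with the same RNA in both channels. With all 8 arrays rescaled to the same median absolute deviation, adipose lay above the other 7 tissues for 76 genes and below them for 60. The other tissues were not counted at that scaling, so whether adipose still had the fewest there was not tested. Leaving out a single array narrows the range or leaves it, so the counts of 30 above and 33 below cannot fall. The adrenal array raised them most, and without it 52 genes lay above and 58 below. The adrenal array correlated below 0 over genes with every other tissue array, from r = -0.31 for liver to -0.02 for ileum. Among the pairs without it, only liver and thymus were below 0 (r = -0.05). Whether the direction of the adrenal array differs from that of the other arrays was not tested. With its sign turned, 47 genes lay above and 44 below in adipose, 91 in all, still the fewest, with spleen next at 121 and adrenal tissue itself at 156.

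Sizes were small. The adipose value lay 0.5 log units or more above the mean of the other 7 tissues for 4 genes (0.571%) and 0.5 or more below it for 7 (0.999%). By this count adipose did not stand out least, since its 11 genes compare with 4 in lymph tissue and 7 in spleen, each set against its own other 7 tissues, and with 14 to 112 in the rest. Without the ileum array the second count was 3, and ileum had the highest value for 5 of those 7 genes. No gene lay 0.5 units beyond the nearest other tissue, and the largest such gap was 0.38. The gap was larger than the SD over the adipose spots for 16 of the 63 genes outside the range. Under a stricter rule, chosen after the values were seen, every adipose spot had to lie beyond the other tissues' means, which left 9 genes above (1.28%) and 12 below (1.71%). The median absolute difference from adipose over genes was 0.205 for ileum and 0.116 to 0.144 for the other 6 tissues. It was 0.117 for adrenal tissue as deposited and 0.121 with its sign turned. The arrays of the reference against itself gave a value farther from 0 than the adipose value, on at least 1 of the 2, for 583 of 701 genes (83.2%), for 44 of the 63 genes outside the range (69.8%) and for 16 of the 21 with every spot outside (76.2%). Taking the larger of 2 values against 1 raises these shares. The second of these arrays also had a median SD over spots of 0.325, against 0.102 on the first and 0.062 on the adipose array. The shares therefore do not measure the error of the adipose values.

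**Figure D1:**
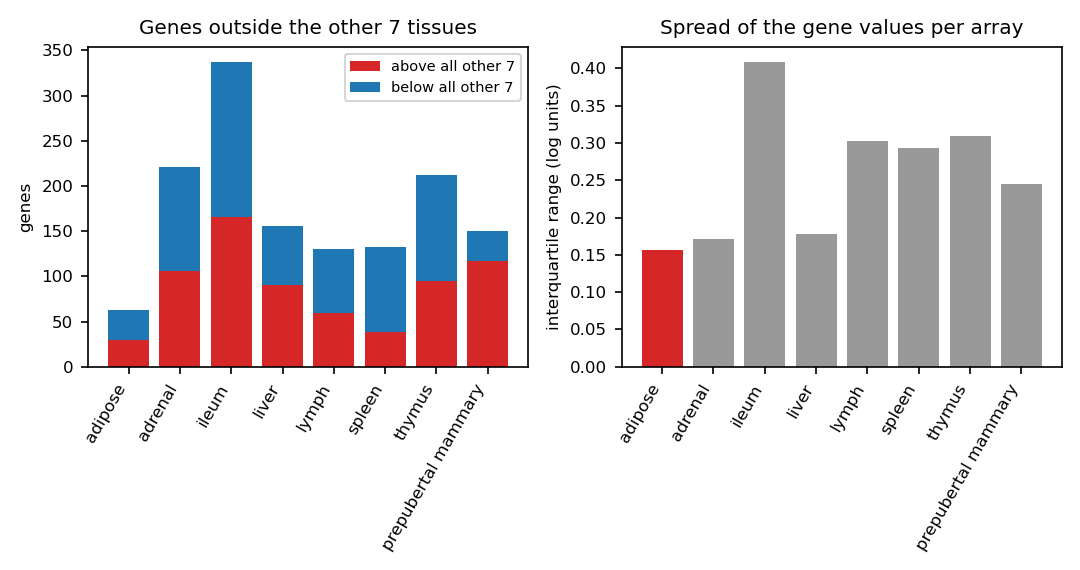
Left, stacked bars of the number of genes whose value on a tissue array lay above (red) or below (blue) the values of all the other 7 tissues, with arrays centred but not rescaled. Right, bars of the interquartile range of the centred log ratios over genes on each array, with adipose in red, and adipose has the fewest genes outside the others (63) and the narrowest spread (0.157).

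**Figure D2:**
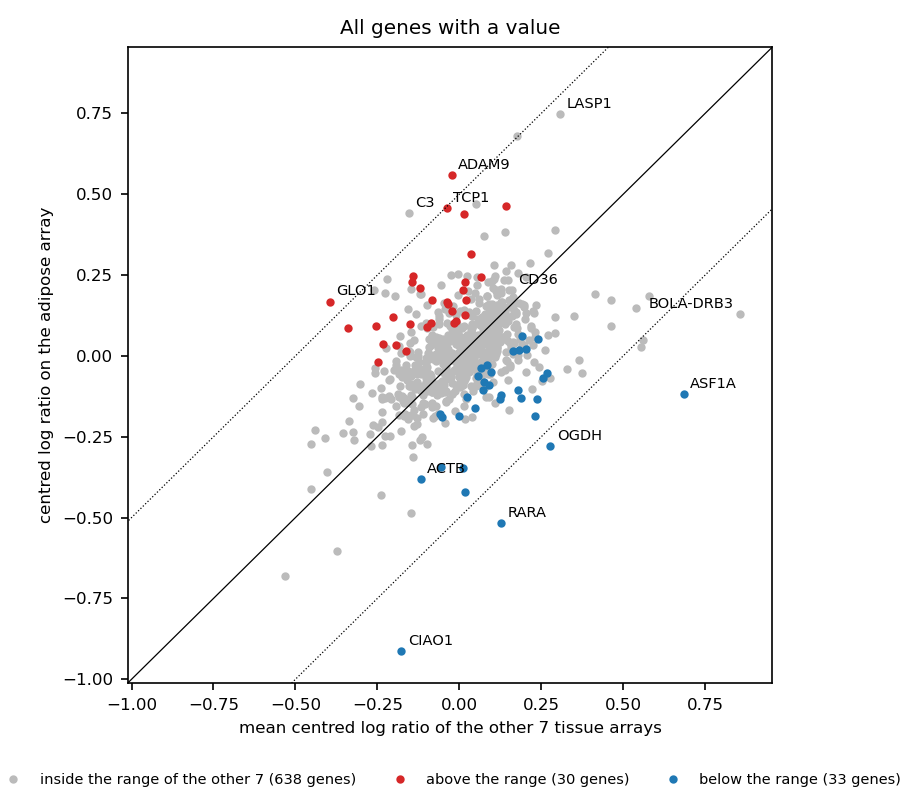
Each point is 1 of 701 genes, with the mean centred log ratio of the other 7 tissue arrays on the x axis and the adipose value on the y axis; the solid line marks equal values and the dotted lines 0.5 log units. Red points lie above and blue points below all the other 7 tissues, and most of them sit inside the dotted lines.

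The label could be checked against only 2 of 21 adipocyte markers, CD36 and GPAM, the only ones among the genes named here. CD36, a fatty acid transporter that is also made by capillary endothelium and macrophages, had 0.30, 0.17 and 0.13 on its adipose spots (0.20 ± 0.09). The other tissues had 0.53 in ileum, 0.32 in mammary gland, 0.16 in liver, 0.13 in thymus, 0.04 in lymph tissue, -0.02 in spleen and -0.03 in adrenal tissue. Adipose was thus the third highest, 0.04 above the mean of the others, and the difference was smaller than the SD over its spots. GPAM, the mitochondrial acyltransferase that starts glycerolipid synthesis, had 0.25, 0.25 and 0.16 on its adipose spots (0.22 ± 0.05). Lymph tissue was at 0.28, ileum at 0.21, thymus at 0.16, spleen at 0.13, mammary gland at -0.08, liver at -0.15 and adrenal tissue at -0.19. GPAM therefore placed adipose the second highest, 0.16 above the mean, with lymph tissue and ileum within 0.06 of it. Neither marker separated adipose from the other organs. Of the markers of other tissues, 0 of 3 hepatocyte, 0 of 5 leukocyte and 0 of 12 mammary epithelial genes lay outside the range of the other tissues. With 8.99% of all genes outside it and so few markers, these counts say little. Inside the range, the hepatocyte marker C3 had the largest difference above the mean of all 701 genes (0.59), and the leukocyte marker BOLA-DRB3 was at -0.73 from it. For C3, 1 liver spot at -3.57 lowered the mean of the other tissues, and the adipose spots ran from -0.30 to 1.28. 0 genes of the adrenal, skeletal muscle and red blood cell lists were measured.

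Of the lipid list, 34 genes were measured. Adipose was above the mean of the other tissues for 11 and below it for 23, with a median difference of -0.03, against 338 above and 363 below and a median of -0.005 over all 701 genes. 3 of the 34 lay outside the range of the other tissues (8.82%, against 8.99% of all genes), and 1 lay 0.5 log units below the mean. The largest lipid difference above the mean was 0.17.

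Genes of fatty acid uptake and transport other than CD36 lay inside the range. FABP5, a fatty acid-binding protein made by adipocytes, macrophages and epithelia, had -0.04, 0.12 and 0.38 on its adipose spots (0.15 ± 0.21), the second highest after ileum at 0.30. The remaining tissues lay between -0.15 in lymph tissue and 0.06 in spleen, and the 0.17 between adipose and the mean was smaller than the SD over spots. SCARB2, a lysosomal membrane protein, was at 0.07 ± 0.09, and its difference of -0.22 from the mean rested on ileum, which stood at 2.16. Without ileum the difference was 0.09. The lysosomal lipase LIPA was at -0.05 ± 0.14 over 6 spots.

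The 7 genes of fatty acid activation and synthesis all lay inside the range, with differences from -0.10 to 0.14. ACSS2, which makes acetyl-CoA from acetate, the main carbon source of fatty acid synthesis in ruminant fat, was at 0.07 ± 0.14 and -0.03 from the mean. ACLY, which makes cytosolic acetyl-CoA from citrate, was at -0.06 ± 0.02. SCD, the desaturase that makes oleate, had the largest difference in the group, at 0.17 ± 0.11 over 5 spots and 0.14 above the mean. Thymus (0.41), lymph tissue (0.27) and liver (0.24) were higher than adipose for SCD, and its clones differed, at 0.28 and 0.01 above the mean. The elongase ELOVL6 (-0.14 ± 0.04) and the acyl-CoA synthetases ACSL1 (0.02 ± 0.02) and ACSL5 (0.13 ± 0.12) were close to the mean of the other tissues. AACS, which activates acetoacetate, was at -0.05 ± 0.04. With 8.99% of all genes outside the range, 0 of 7 is near that share.

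Of the droplet genes, RAB18, a small GTPase on lipid droplets, was at 0.10 ± 0.01 and BTN1A1, a membrane protein of the milk fat globule, at -0.07 ± 0.08. BTN1A1 was highest in mammary gland, at 0.39, but on only 1 of its 2 clones. The mammary spots of that clone were 0.88, 0.84 and 1.04, and those of the other were -0.12, -0.15 and -0.15. PTPMT1, a mitochondrial phosphatase of cardiolipin synthesis, was at 0.04 ± 0.10 in adipose, inside a range from -0.12 in adrenal tissue to 0.43 in liver.

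Fatty acid oxidation was the largest lipid group, with 11 genes, 3 above and 8 below the mean, against 338 and 363 of all genes. It held 1 gene above the range and 1 below it (18.2%, against 8.99% of all genes). With so few genes these counts say little. ECHS1, the enoyl-CoA hydratase of mitochondrial beta-oxidation, had 0.15, 0.14 and 0.12 on its adipose spots. Mammary gland was at 0.05, liver at 0.04, adrenal tissue at 0.03, lymph tissue at 0.01, thymus at -0.08, ileum at -0.09 and spleen at -0.11. Every adipose spot of ECHS1 was above the means of all the other tissues, by 0.09 for the adipose mean. The difference from the mean of the others was 0.16 with an SD over spots of 0.015. Single spots of ileum (0.202) and adrenal tissue (0.153) were higher than every adipose spot. ECHS1 was the lipid-list gene with every adipose spot outside the other tissues' means. The arrays of the reference against itself had 0.20 and -0.24 for it, both farther from 0 than the adipose mean of 0.14.

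BDH2, a cytosolic hydroxybutyrate dehydrogenase, was below the range with 0.07, 0.01 and 0.08 on its adipose spots. Adrenal tissue (0.07), ileum (0.08) and liver (0.11) were within 0.06 of the adipose mean of 0.05, and mammary gland was highest at 0.79. The gap to the next tissue was 0.02, smaller than the SD over spots, and BDH2 was back inside the range in 4 of 18 other settings. Most of the 18, such as leaving out a tissue, could not have moved it inside. SLC22A4, a carnitine and ergothioneine transporter, was at -0.02 ± 0.07, 0.25 below a mean raised by mammary gland at 1.00. CPT2, which hands fatty acids to the mitochondrial matrix, was at 0.03 ± 0.09 and 0.16 below the mean, with ileum at 0.63. The dehydrogenase ACADS, the carnitine acetyltransferase CRAT and the thiolase ACAT1 differed from the mean by -0.07, 0.06 and -0.03.

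In the cholesterol group, IDI1 was at 0.05 ± 0.05, with mammary gland highest at 0.97, and SC5D at -0.13 ± 0.11. The 4 sphingolipid genes SPTLC1, CERS2, DEGS1 and ASAH1 all lay within 0.10 of the mean of the other tissues. SPTLC1, part of the serine palmitoyltransferase that opens the pathway, had adipose spots of -0.16, 0.27 and -0.38, so its small difference of -0.09 was far inside the spread of its spots.

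The largest lipid difference was that of RARA, the retinoic acid receptor alpha, a nuclear receptor through which retinoic acid acts. Its adipose mean was -0.52 ± 0.84, below mammary gland at -0.14, adrenal tissue at -0.02, liver at 0.03, spleen at 0.17, thymus at 0.27, ileum at 0.29 and lymph tissue at 0.31. The gap of 0.38 to mammary gland was the largest of any gene, and the difference from the mean was -0.65. The 3 adipose spots were -0.09, -1.49 and 0.02, however, and 1 spot made the gap. With that spot left out the difference was -0.16 and RARA lay inside the range. GHR, the growth hormone receptor, was at 0.08 ± 0.12.

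**Figure D3:**
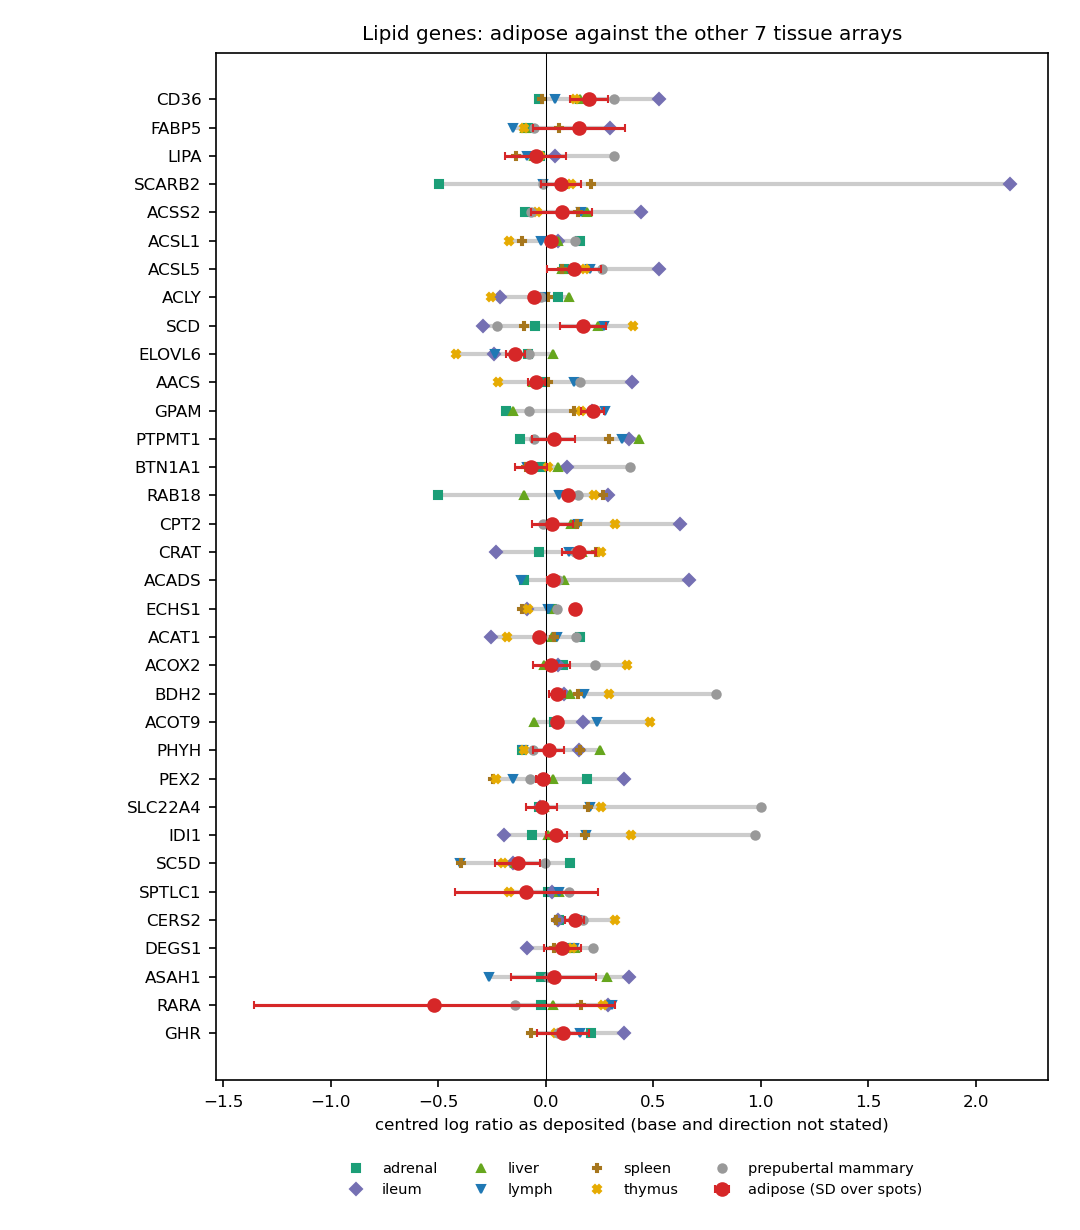
Centred log ratios (x axis, log units of unstated base and direction) of the 34 measured lipid genes, in the order of their roles from uptake to regulators. Red points with bars are the adipose mean and SD over spots, other symbols are the other 7 tissues and the grey line is their range; adipose lies inside the range for 31 of 34 genes, and RARA has the widest spread over spots.

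Of the matrix list, 26 genes were measured, 13 above and 13 below the mean of the other tissues, with a median difference of 0.02. 4 lay outside the range (15.4%, against 8.99% of all genes), 3 above and 1 below, and of these only MFAP4 had every adipose spot outside. The 4 genes are of different kinds, a microfibril protein, a proteoglycan, a surface protease and an elastic fibre protein.

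The 4 collagen genes were all inside the range. COL6A1 and COL6A2, chains of the type VI collagen that surrounds adipocytes, were at 0.08 ± 0.23 and 0.07 ± 0.03, which were 0.10 above and 0.02 below the mean. COL6A2 was higher in spleen (0.39), lymph tissue (0.27) and thymus (0.26). COL15A1, a collagen of the basement membrane zone of capillaries and adipocytes, was at 0.01 ± 0.13, the second highest after liver at 0.10 and 0.16 above the mean. Ileum was at -0.61 for COL15A1, and without ileum the difference was 0.09. COL5A2 of fibrillar collagen was at -0.05 ± 0.13 and 0.04 above the mean. The basement membrane genes LAMC1 and NID1 were -0.09 and -0.005 from it, and SDC2, listed with them, was -0.03 from it.

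Among the fibrillar and elastic glycoproteins, MFAP4, a microfibril-associated protein of elastic fibres, had -0.01, -0.01 and 0.06 on its adipose spots (0.01 ± 0.04). Adrenal tissue was at -0.06, thymus at -0.08, ileum at -0.13, mammary gland at -0.14, liver at -0.15, and lymph tissue and spleen at -0.29. All other tissue means were below 0 for MFAP4 and adipose was at it, 0.18 above their mean. A single thymus spot, at 0.13, was higher than every adipose spot. Every adipose spot lay above the range of the other tissues' means. With the sign of the adrenal array turned, the adrenal value lay above adipose and this position was lost. MFAP4 was at 0.01 and -0.81 on the arrays of the reference against itself. FBLN5, which helps elastic fibres to assemble, lay below the range at 0.02 ± 0.03, but spleen (0.02), liver (0.03) and thymus (0.08) were level with it or nearly so. MFAP5 was at 0.01 ± 0.03 and ECM2, a matrix protein found in fat, at 0.07 ± 0.11, both inside the range.

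BGN (biglycan), a small leucine-rich proteoglycan that binds collagen, had -0.04, 0.19 and 0.16 on its adipose spots (0.10 ± 0.12). Adrenal tissue was at 0.06, thymus at 0.04, mammary gland at -0.05, ileum at -0.08, liver at -0.10, spleen at -0.12 and lymph tissue at -0.34. Adipose was highest by 0.04, a gap smaller than the SD over spots, and 0.19 above the mean. The proteoglycans ASPN (asporin) and VCAN (versican) were on the same side of the mean. ASPN was at 0.16 ± 0.08, 0.26 above the mean and level with adrenal tissue at 0.17. With the sign of the adrenal array turned, adipose was the highest tissue for ASPN. VCAN was at 0.04 ± 0.11, 0.19 above the mean and below ileum (0.13) and adrenal tissue (0.10). BGN, ASPN and VCAN all had lymph tissue as the lowest tissue. The matricellular proteins TNC (-0.31 ± 0.04) and POSTN (-0.24 ± 0.04, 6 spots) were inside the range, and POSTN was 0.09 above a mean that ileum at -1.52 pulled down, or 0.11 below it without ileum.

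ADAM9, a membrane metalloprotease that sheds surface proteins, was the highest of the genes outside the range, at 0.24, 0.38 and 1.05 on its adipose spots (0.56 ± 0.43). Lymph tissue was at 0.40, thymus at 0.33, spleen at 0.27, adrenal tissue at 0.17, liver at -0.12, mammary gland at -0.13 and ileum at -1.08. The difference from the mean was 0.58, and 0.40 without ileum. Lymph tissue lay between the second and the third adipose spot, and with the third left out the difference was 0.34 and ADAM9 was inside the range. On both arrays of the reference against itself ADAM9 was far below 0, at -1.12 on the first and close to that on the second.

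None of the 8 matrix receptor and adhesion genes was outside the range, which says little with 8.99% of all genes outside it. CD151, a tetraspanin that holds laminin-binding integrins, had 0.22, 0.51 and 0.38 on its adipose spots (0.37 ± 0.15), 0.30 above the mean but level with liver at 0.38. CD47, a thrombospondin receptor, was at -0.01 ± 0.09, 0.38 below the mean, with liver (-0.36) and adrenal tissue (-0.16) lower still and ileum at 1.00. SGCB of the sarcoglycan complex had spots from -0.10 to -1.29 (-0.60 ± 0.62). PARVA, an actin-binding partner of integrin-linked kinase, had 2 spots at 0.55 and -1.91 and its mean of -0.68 rests on spots of opposite sign. TGFBR2, a TGF-beta receptor, was at 0.23 ± 0.21 and 0.14 above the mean.

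**Figure D4:**
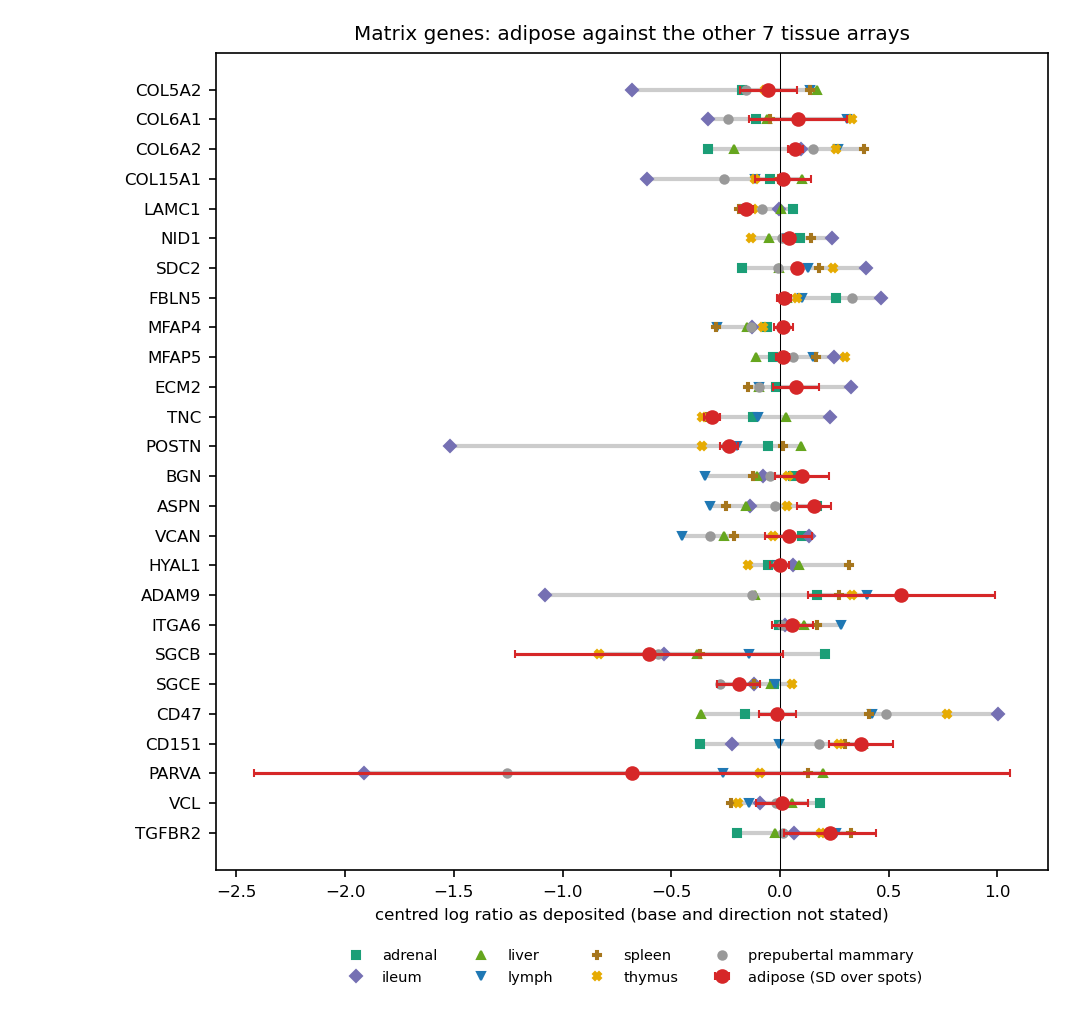
Centred log ratios (x axis, log units of unstated base and direction) of the 26 measured matrix genes, from collagens to receptors. Red points with bars are the adipose mean and SD over spots, other symbols the other 7 tissues and the grey line their range; MFAP4, BGN and ADAM9 lie above the range, FBLN5 at its lower edge, and PARVA and SGCB have the widest bars.

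Of the vascular list, 19 genes were measured, 9 above and 10 below the mean, with a median difference of -0.01. 1 lay outside the range (5.26%, against 8.99% of all genes) and 0 lay 0.5 log units from the mean. Endothelial genes were close to the other organs. EMCN (endomucin), a sialomucin of capillary and venous endothelium, was at -0.01 ± 0.08 in a range from -0.26 in adrenal tissue to 0.39 in ileum. NRP1, a co-receptor of VEGF, was at 0.04 ± 0.06 and 0.12 above the mean, with liver at 0.11 and spleen at 0.06 higher. S1PR1, the sphingosine-1-phosphate receptor of endothelium and lymphocytes, was at 0.11 ± 0.01 and -0.03 from the mean. CD300LG, a mucin-like protein of capillary endothelium, was at -0.09 ± 0.09 and -0.10 from it. MCAM, made by endothelium and pericytes, had 9 spots at 0.01 ± 0.21, and its clones lay 0.08 above and 0.12 below the mean (-0.12). CLIC4, CD99 and GNA14 were also inside the range.

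The caveolar genes were both above the mean and both inside the range. CAV1 (caveolin-1), the main coat protein of caveolae, was at 0.05 ± 0.08 over 6 spots of 2 clones, the third highest after thymus (0.07) and lymph tissue (0.05). The other values were -0.003 in adrenal tissue, -0.06 in liver, -0.08 in mammary gland, -0.13 in spleen and -0.82 in ileum. The difference of 0.19 rested on ileum, and without that array it was 0.07, smaller than the SD over spots. The clones of CAV1 differed, at 0.08 and 0.29 above the mean. Lymph tissue was above 0 on every spot of the first clone and below 0 on every spot of the second. PACSIN2, which shapes caveolar necks, was at 0.09 ± 0.11.

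FGF2, an angiogenic growth factor that also acts on preadipocytes, was the vascular gene outside the range. Its adipose spots were -0.12, -0.07 and -0.21 (-0.13 ± 0.07). Adrenal tissue was at -0.11, liver at 0.05, lymph tissue at 0.11, spleen at 0.12, ileum at 0.18, thymus at 0.23 and mammary gland at 0.30. The difference from the mean was -0.26. Adipose and adrenal tissue were 0.02 apart, less than the SD over spots, while all 3 adipose spots were below the other 6 tissues. PDGFA and CCM2, the other angiogenic genes, were within 0.04 of the mean.

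The smooth muscle and pericyte genes were 5 above and 1 below the mean, with all 6 inside the range. With 338 of 701 genes above the mean and 8.99% outside the range, counts over 6 genes say little. ACTG2 and MYH11, the smooth muscle actin and myosin heavy chain, were at -0.18 ± 0.03 and 0.08 ± 0.04, which was -0.12 and 0.01 from the mean. The tropomyosins TPM1 and TPM4 (-0.10 ± 0.05 and -0.24 ± 0.05) and the calponin CNN3 were within 0.13 of it. LASP1, an actin-binding adaptor, had the highest adipose value of all 701 genes, 0.75, but from 2 spots at 0.37 and 1.13. Spleen was higher at 0.86, and the difference from the mean was 0.44.

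**Figure D5:**
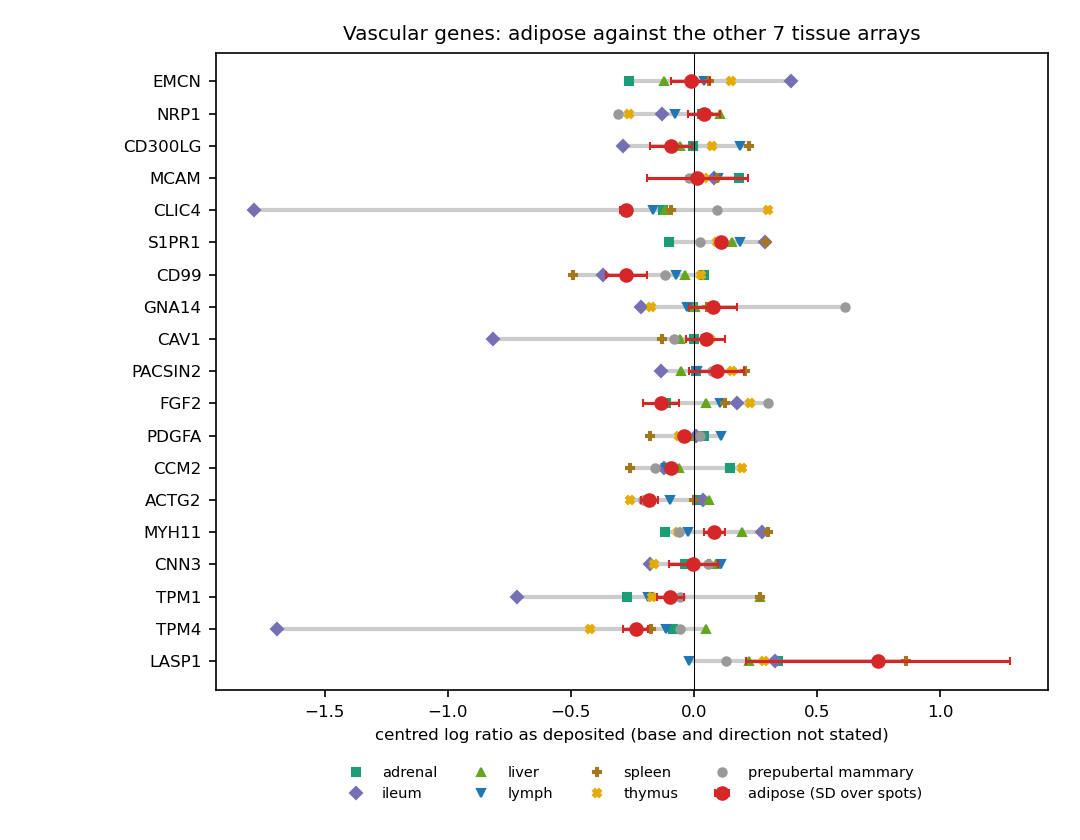
Centred log ratios (x axis, log units of unstated base and direction) of the 19 measured vascular genes, from endothelial surface genes to smooth muscle genes. Red points with bars are the adipose mean and SD over spots, other symbols the other 7 tissues and the grey line their range; adipose lies inside the range for all but FGF2, and ileum sets the low end for CLIC4, TPM4 and CAV1.

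Further genes of the same themes were picked from the array's gene names after the first lists proved short. Of 28 added lipid and energy genes, 18 were above and 10 below the mean, and 3 lay outside the range (10.7%, close to the 8.99% of all genes). OGDH, a subunit of the oxoglutarate dehydrogenase of the citrate cycle, had -0.08, -0.40 and -0.36 on its adipose spots (-0.28 ± 0.17). Adrenal tissue was at -0.02, liver at 0.15, thymus at 0.20, lymph tissue at 0.22, spleen at 0.31, mammary gland at 0.35 and ileum at 0.75. Every adipose spot was below the means of all the other tissues, the gap was 0.25 and the difference -0.56, or -0.48 without ileum. Among the 11 genes at least 0.5 log units from the mean, OGDH alone had all its spots outside the range. It also varied on the arrays of the reference against itself, at -0.50 and 0.72.

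HIBADH, a dehydrogenase of valine breakdown, was below the range at -0.35 ± 0.50, with spots of -0.17, -0.91 and 0.04, and went back inside it without the second. ALOX15B, a lipoxygenase that acts on arachidonic acid, was above the range at 0.21 ± 0.27, by 0.02 over thymus, with spots of 0.18, 0.50 and -0.05. ADIRF, a factor that promotes adipogenesis, had close spots at 0.15, 0.25 and 0.21 and was 0.36 above the mean. Adrenal tissue was level with it at 0.22, ileum was lowest at -0.94, and the difference was 0.22 without ileum. With the sign of the adrenal array turned, adipose was the highest tissue for ADIRF. KLF10, a transcription factor induced by TGF-beta and of the same group of 4 genes, was as far the other way, -0.37 from the mean at 0.09 ± 0.13. Ileum was at 1.83 for KLF10, and without it the difference was -0.15. PCTP, the phosphatidylcholine transfer protein, was 0.38 above the mean at 0.18 ± 0.19, below liver (0.25) and ileum (0.23). PDK4, the kinase that turns off pyruvate dehydrogenase in fasting, was at 0.04 ± 0.27, and its 2 clones were 0.11 above and 0.15 below the mean (-0.15).

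Of 15 added matrix genes 6 were above and 9 below the mean, and only SULF2, a heparan sulfate sulfatase at 0.02 ± 0.10, was outside the range (6.67%), below liver and spleen by 0.02. Of 14 added vascular genes 9 were above and 5 below, and only FILIP1L was outside (7.14%), above liver and spleen by 0.03 at 0.10 ± 0.08. Both shares are close to the 8.99% of all genes. DDAH2, which removes an inhibitor of nitric oxide synthesis, was at 0.24 ± 0.17, the second highest after lymph tissue at 0.30.

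Over all genes, the 10 highest and 10 lowest differences were taken among genes outside the range with at least 3 adipose spots. The highest were ADAM9, GLO1, TCP1, TSN, EMC3, MCFD2, NT5C2, IMMT, ALOX15B and YIPF1, from 0.58 down to 0.32. GLO1, the glyoxalase that clears methylglyoxal, had close adipose spots of 0.20, 0.18 and 0.12, but adrenal tissue was level with them at 0.15. The other tissues ran from -0.09 in thymus to -0.97 in ileum, and the difference of 0.56 was 0.47 without ileum. TCP1, a chaperonin subunit, had spots of 0.20, 0.40 and 0.77 and was inside the range with the third left out.

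IMMT, which shapes the cristae of mitochondria, had the closest spots, 0.09, 0.10 and 0.09. The other tissues lay between -0.06 in adrenal tissue and -0.53 in ileum, so adipose was above all of them by 0.15, and 0.35 above the mean. MCFD2, a cargo receptor partner of the early secretory pathway, was above the range by 0.15, with all spots above the other tissues' means (0.31, 0.24 and 0.19). YIPF1 of the Golgi was above the range by 0.15 as well (0.01, 0.30 and 0.05). On the arrays of the reference against itself MCFD2 was higher than in adipose, at 0.34 and 0.47, IMMT was at -0.02 and -0.39 and YIPF1 at -0.37 and -0.29. EMC3 of the endoplasmic reticulum membrane complex had spots of 0.49, -0.06 and 0.89. The nucleotidase NT5C2 (0.23 ± 0.08) and the nucleic acid-binding protein TSN (0.09 ± 0.07) were above the nearest tissue by 0.07 and 0.04. None of these high genes but ADAM9 and ALOX15B was on a lipid, matrix or vascular list.

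The lowest were ASF1A, CIAO1, RARA, OGDH, SIRT7, TTC1, HIBADH, TEAD3, TMEM150A and RBM45, from -0.80 to -0.32. ASF1A, a histone chaperone, had adipose spots of 0.08, -0.60 and 0.16 (-0.12 ± 0.42), level with liver at -0.10. Ileum (2.29) and mammary gland (1.10) were highest, and the difference was -0.40 without both. With the second adipose spot left out it was -0.56 and ASF1A was inside the range. CIAO1, of cytosolic iron-sulfur protein assembly, had the lowest adipose value of all genes, -0.91 ± 0.83, with spots of -0.13, -0.81 and -1.79 and spleen next at -0.67. With the third spot left out its difference was -0.30, inside the range.

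SIRT7, a nuclear deacylase, was below the means of all the other tissues on every spot (-0.17, -0.20 and -0.18). Adrenal tissue at -0.16 was 0.02 away, and 1 of its spots, at -0.21, was lower than every adipose spot. Mammary gland was at 0.84, and the arrays of the reference against itself were lower than adipose, at -0.33 and -0.59. TMEM150A, a membrane protein, had spots of -0.03, -0.08 and -0.05, with the other tissues from 0.08 in adrenal tissue to 1.04 in mammary gland. Its gap of 0.14 was larger than the SD over spots of 0.03, and it was lost with the sign of the adrenal array turned. The arrays of the reference against itself had 0.18 and 0.23 for it. TTC1, TEAD3 and RBM45 were also highest in mammary gland (0.84, 0.96 and 0.76), and their adipose spots did not all lie outside the range.

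5 further genes were at least 0.5 log units from the mean but inside the range. Complement C3, which adipocytes and hepatocytes secrete, had adipose spots of -0.30, 0.34 and 1.28 (0.44 ± 0.80), 0.59 above the mean, with adrenal tissue higher at 0.62 and liver lowest at -1.10. The liver spots of C3 were 0.34, -0.07 and -3.57, so 1 spot made liver the lowest. ARPC5 of the actin-nucleating Arp2/3 complex was at 0.68 ± 0.55, below liver at 1.16. BOLA-DRB3, a class II histocompatibility gene, was at 0.13 ± 0.01 in adipose against 3.17 in ileum, 1.04 in spleen and 1.03 in lymph tissue, and was -0.73 from the mean. Adrenal tissue (0.05) and liver (0.01) were lower than adipose for this gene. ELOA and EP400, of transcription and chromatin, were -0.53 and -0.51 from a mean that ileum set, at 2.10 and 3.37, and without ileum they were -0.27 and -0.05 from it.

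The gene with most spots, ACTB, was looked at after its values were seen. Its adipose mean was -0.38 ± 0.26 over 150 spots. Spleen was at -0.29, mammary gland at -0.21, thymus at -0.20, adrenal tissue at -0.18, lymph tissue at -0.15, liver at -0.01 and ileum at 0.21. Adipose was below all of them by 0.10, less than the SD over spots. ACTB was at -0.24 and 0.19 on the arrays of the reference against itself.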

How the data were processed

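Per the labels, RNA of 8 tissues was hybridised in channel 2 against BovMac total RNA in channel 1. The authors deposited 1 log ratio per spot, taken here as a score of unstated base and direction, for 3888 spots on each of 13 arrays. Background correction, normalization and dyes were not given in the sources used here. In the platform's annotation 2538 spots had a single gene, 30 had several and 1320 had none. RefSeq's table of the ARS-UCD2.0 assembly held 703 of the 706 gene IDs, and 0 symbols changed.

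An exact 0 (193 adipose spots) was taken as missing, each array was centred on its median and spots were averaged per gene. Genes needed at least 2 spots on adipose and on at least 6 of the other 7 arrays. 618 of 701 genes had 3 adipose spots, with a median SD over spots of 0.062. Intensities were not used, and precision is limited by how few arrays there are. Members, lists, filters and thresholds were chosen with earlier results of these data known, and the added lists and the rule on every spot after the values or gene names were seen. Named genes were the list genes outside the range of the other tissues or at least 0.5 from their mean, the markers, and the 10 highest and 10 lowest differences outside the range with at least 3 spots. Other genes were named after their values were seen, as list members or as the rest past 0.5. No set test, p-value or correlation was used as a result. Calculations used pandas 2.3.3 and numpy 2.4.6, figures matplotlib 3.10.9, all under Python 3.11.15, and the code was tested on simulated data.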

Additional observations from a re-analysis of the deposited data

Results flagged for a closer look

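3 of the 380 clones kept that name no gene were picked from the unnamed spots, outside the comparison of named genes. They lay outside the range, here above it, and at least 0.5 from the mean of the other tissues. Their adipose values were also farther from 0 than those on both arrays of the reference against itself. How many of the 701 named genes pass the same rule was not counted. An unnamed clone was taken as 3 consecutive spots in the deposited order, which was assumed. Unnamed clone 882 was at 1.20 in adipose, with spots of 1.27, 1.85 and 0.47, against 0.91 in spleen as the next tissue and -0.01 and 0.17 on the arrays of the reference against itself. Unnamed clone 806 was at 1.09, with spots of 0.25, -0.52 and 3.55, so 1 spot made its mean, and 1.02 on the second array of the reference against itself. Unnamed clone 481 was at 0.23, with spots of 0.08, 0.26 and 0.35, against 0.05 in adrenal tissue and -0.82 to -0.19 in the other tissues with a value. Ileum had only 1 spot for this clone, at 0.23, and was left out. 1 adrenal spot, at 0.37, was higher than every adipose spot. Of 380 unnamed clones kept, 23 were above and 18 below the range of the other tissues. Among the 701 named genes 30 (4.28%) were above it and 33 (4.71%) below. No group had 4 or more arrays, so no array could be singled out within a group.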

How the results depend on the processing

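19 other settings were tried. With arrays scaled to the same median absolute deviation, 14 genes were 0.5 above the mean, 76 above the range and 60 below it. With the median over spots 1 gene was 0.5 above the mean. Without ileum and prepubertal mammary gland together, 3 were 0.5 below the mean, 55 above the range and 50 below. At a threshold of 0.3 there were 22 above and 25 below. With the sign of the adrenal array turned, 47 were above the range and 44 below. It was turned since the array correlated below 0 over genes with every other tissue (liver r = -0.31, or -0.15 over spots). With the farthest adipose spot left out 4 were 0.5 below the mean, and with every spot required 9 were above and 12 below the range. These 3 settings were chosen after seeing the data, and beyond these constructions the cause was not tested. Leaving out each other tissue in turn gave 3 to 6 genes 0.5 above, 3 to 8 genes 0.5 below, 35 to 52 above the range and 35 to 58 below. The counts outside the range cannot fall when a tissue is left out. The list medians moved by less than the typical SD over spots, with lipid below 0 throughout, from -0.05 to -0.002, while the sign changed for matrix (-0.003 to 0.04) and vascular genes (-0.05 to 0.02). Of 504 differences of 28 named genes, 57 moved by more than the SD over spots. A change of sign was counted only for genes outside the range or at least 0.5 from the mean, and 0 were found. CD36 and GPAM were not in that count. CD36 fell slightly below the mean of the other tissues with the median over spots and with the farthest adipose spot left out. ECHS1, BGN, OGDH, GLO1, EMC3, IMMT, MCFD2, NT5C2, SIRT7, TSN and YIPF1 kept their side in all 18 settings that apply to a gene. Most of these settings could not have moved them inside the range, so the count is no measure of stability. Leaving out tissues can only narrow the range, and using the median of the other tissues leaves it unchanged. Averaging over clones or asking for 1 or 3 spots changes nothing for a gene with 1 clone and 3 spots. No paired analysis was possible because each tissue had 1 array and the labels number no replicates across tissues. Signal over background could not be read from the log ratios.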
